A study of Homo sapiens with 12 samples.

Results

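The response of CHD8-depleted breast cancer cells to the synthetic progestin R5020 was measured on 6 arrays, 3 with hormone and 3 with vehicle, out of 12 arrays in all. Its members are these 6 samples, chosen by their labels, and the comparison runs over the 21214 probe sets that carry a gene symbol. T47D-MTVL cells, a human luminal breast cancer line derived from T47D that carries 1 integrated copy of the MMTV promoter driving a luciferase reporter, were transfected with an siRNA against CHD8 (siCHD8) or with a control siRNA (siCt). All cells were then kept 48 h in medium without serum or phenol red, and received 10 nM R5020 or the ethanol vehicle (EtOH) for 6 h. The 4 conditions are therefore siCt EtOH, siCt R5020, siCHD8 EtOH and siCHD8 R5020, each with 3 arrays that the labels name biological replicates. CHD8 was targeted by 1 siRNA sequence in 1 cell line, so the siCHD8 cells are a partial and transient depletion, not a knockout.

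R5020 binds the progesterone receptor, a ligand-activated transcription factor of the steroid receptor family. The hormone-bound receptor occupies DNA elements that it shares with the glucocorticoid receptor, and it recruits chromatin remodelers, histone modifying enzymes and coactivators to enhancers and promoters. CHD8 is an ATP-dependent remodeler of the chromodomain helicase family, and the comparison addresses which hormone effects on RNA were present once its level had been lowered.

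The signal of CHD8 was lower in siCHD8. Its log2 intensities were 5.42, 5.11 and 5.04 on the 3 siCHD8 EtOH arrays against 5.70, 5.71 and 5.91 on the siCt EtOH arrays, and 4.77, 4.62 and 4.81 on the siCHD8 R5020 arrays against 5.52, 5.24 and 5.29 on the siCt R5020 arrays. The siCHD8 arrays lay below the siCt arrays of the same treatment without overlap. The knockdown difference was -0.58 with vehicle (SE 0.13, adjusted p = 0.0711, limma) and -0.62 with R5020 (SE 0.13, adjusted p = 0.0627, limma), neither of which passed 0.05 over all probe sets. CHD8 was also lower with hormone than with vehicle within siCHD8, with a log2 change of -0.46 (SE 0.13, adjusted p = 0.0258, limma), which passed 0.05 no longer without siCHD8 EtOH replicate 1 or any 1 of the siCHD8 R5020 arrays. With the control siRNA CHD8 changed by -0.42 with hormone (SE 0.13, adjusted p = 0.0349, limma). The deposited values do not say whether the CHD8 signal left in siCHD8 stood above background. The study itself checked the knockdown by RT-PCR and western blot. Luminal markers were bright in the vehicle arrays, with mean log2 intensities of 10.8 for KRT8, 10.6 for GATA3 and 9.15 for FOXA1. The 11 measured blood and endothelial markers averaged 2.23 to 2.36 per siCHD8 EtOH array and 2.30 to 2.40 per siCHD8 R5020 array, and the 12 fibroblast markers 2.85 to 3.02 and 2.88 to 2.96. PTPRC, a surface phosphatase of all leukocytes, had a mean log2 intensity of 1.14 with vehicle, which is near the floor of the arrays. No member of these lists passed an adjusted p of 0.05 in siCHD8 (lowest 0.368 and 0.108, limma). The median log2 intensity of the 12 arrays lay between 4.52 and 4.62, and Pearson's r over probe sets (genes are not independent of each other) was 0.990 to 0.995 between siCHD8 arrays of 1 treatment and 0.982 to 0.984 between treatments. Values are RNA levels of a cell population, in which fewer cells expressing a gene and less RNA per cell cannot be told apart.

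R5020 changed 1189 of 21214 probe sets in siCHD8 (5.6%) at an adjusted p under 0.01 with a fold over 1.5 (limma, 3 arrays against 3), and such probe sets are called changed below. Of these, 715 were higher with hormone (3.37% of those tested) and 474 were lower (2.23%). They stand for 662 and 453 distinct genes among the probe sets with 1 symbol. The rises were larger than the falls at the extremes. Over 2-fold there were 292 rises and 149 falls, over 4-fold 49 and 7, and over 8-fold 5 and 1. At the adjusted p of 0.05 used for gene lists, 11.5% of the probe sets passed, with 6.04% higher and 5.43% lower. Counts of list members below are to be read against these shares. The median SE of a log2 change was 0.13, and the number of arrays limits this precision. Without siCHD8 EtOH replicate 1 the split was 734 higher and 328 lower.

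**Figure D1:**
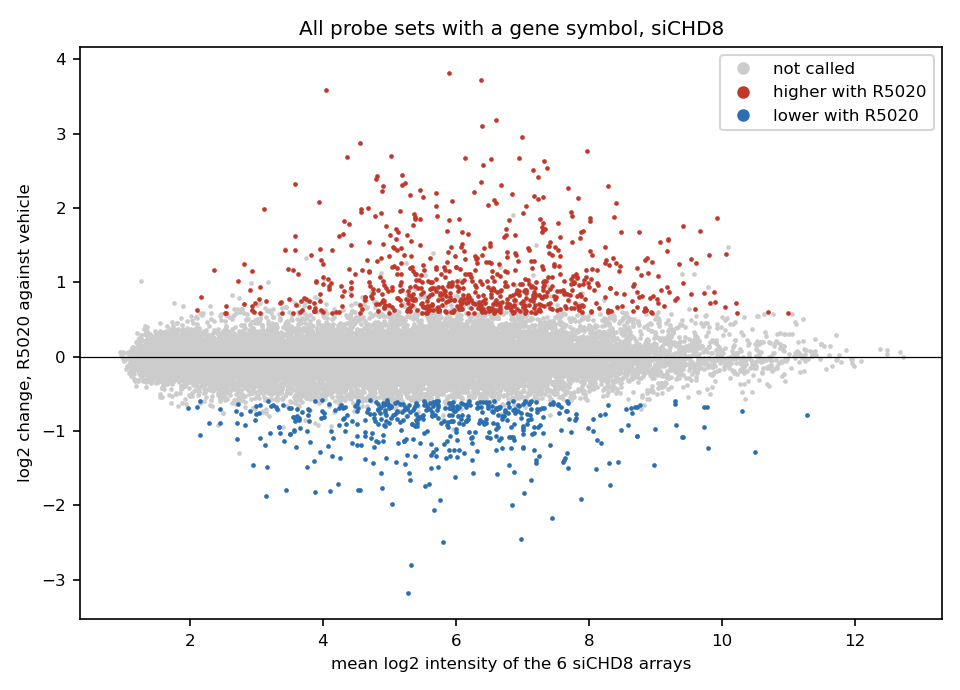
Log2 change with R5020 in siCHD8 (vertical axis) against the mean log2 intensity of the 6 siCHD8 arrays (horizontal axis), 1 point per probe set with a gene symbol. The 715 probe sets called higher (red) reach further from 0 than the 474 called lower (blue), and both occur over most of the range of intensity.

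The mitochondrial glutamate carrier SLC25A18 was among the strongest responders. It had log2 intensities of 4.73, 5.0 and 4.81 with vehicle and of 8.05, 7.94 and 7.86 with R5020. All hormone arrays lay far above all vehicle arrays, a log2 change of 3.10 (SE 0.11, 8.60-fold, adjusted p = 2.62e-10, limma). Of 29 measured members of the SLC25 family of mitochondrial carriers, 5 rose and 1 fell, with a median log2 change of 0.06 against -0.02 over all probe sets tested. Members that passed were 20.7% of this list, against 11.5% of all probe sets. The ornithine carrier SLC25A15 rose by 1.56 (SE 0.16) and the uncoupling protein UCP2 by 0.59 (SE 0.10), while the carnitine-acylcarnitine carrier SLC25A20 changed by -0.71 (SE 0.10). Without siCHD8 EtOH replicate 2 the SLC25 members that fell numbered 2.

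SOX2, a transcription factor of pluripotent and progenitor cells, moved the opposite way. Its log2 intensities were 6.94, 6.68 and 6.56 with vehicle and 4.20, 3.93 and 3.63 with R5020. The groups were apart by more than 2 log2 units, and the hormone left 0.143 of the vehicle level (log2 change -2.81, SE 0.15, adjusted p = 9.88e-09, limma). Among 18 measured SOX factors and stemness genes, 6 rose and 3 fell, with a median log2 change of 0.04. LIN28A, an RNA-binding protein of pluripotent cells, changed by -1.38 (SE 0.12, adjusted p = 1.29e-06, limma). Its vehicle arrays stood at 7.04, 6.92 and 6.84 and its hormone arrays at 5.61, 5.50 and 5.54. By contrast, the hyaluronan receptor CD44 rose by 1.90 (SE 0.10), KLF4, a Kruppel-like factor, by 1.86 (SE 0.13) and the retinaldehyde dehydrogenase ALDH1A3 by 0.77 (SE 0.10). A second probe set of ALDH1A3 gave a log2 change of -0.07 (adjusted p = 0.881, limma), so its probe sets disagreed.

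TGFB2, a secreted ligand of the TGF-beta family, had the steepest fall among genes with 1 symbol per probe set. The vehicle arrays read 6.89, 6.91 and 6.83 and the hormone arrays 3.71, 3.95 and 3.43 on the log2 scale. This is a log2 change of -3.18 (SE 0.14, adjusted p = 2.88e-09, limma), which left 0.11 of the vehicle level with no overlap of the arrays. A further ligand of the family, TGFB3, changed by -1.19 (SE 0.15), the type II receptor gene BMPR2 by -0.74 (SE 0.12) and the signal transducer SMAD3 by -0.69 (SE 0.11), while TGIF1, a repressor of SMAD-dependent transcription, rose by 1.08 (SE 0.12). Over the 25 measured ligands, receptors and effectors 2 rose, 5 fell and 18 did not pass, with a median of -0.13. The share that passed was 28%, against 11.5% of all probe sets. The falls numbered 8 without siCt EtOH replicate 3, which enters through the shared estimate of the spread.

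SNAI1, a zinc finger repressor of epithelial genes, was dim in vehicle at 3.54, 3.21 and 3.39 and reached 4.67, 4.71 and 4.49 with R5020. Its rise of 1.24 (SE 0.12, adjusted p = 2.57e-06, limma) separated the 2 groups of arrays by nearly 1 log2 unit. It was the single member to rise among 16 transcription factors of the epithelial-mesenchymal transition and mesenchymal markers, of which 3 fell. In this list 25% passed, against 11.5% of all probe sets. The extracellular matrix gene FN1 changed by -0.75 (SE 0.14), the integrin gene ITGA5 by -0.70 (SE 0.15) and the basic helix-loop-helix factor TWIST1 by -0.40 (SE 0.12, adjusted p = 0.0492, limma). TWIST1 passed 0.05 no longer in 9 of the fits with 1 array left out. SNAI1 and TWIST1 therefore differed in direction in the same cells, and the median of the list was -0.07.

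**Figure D2:**
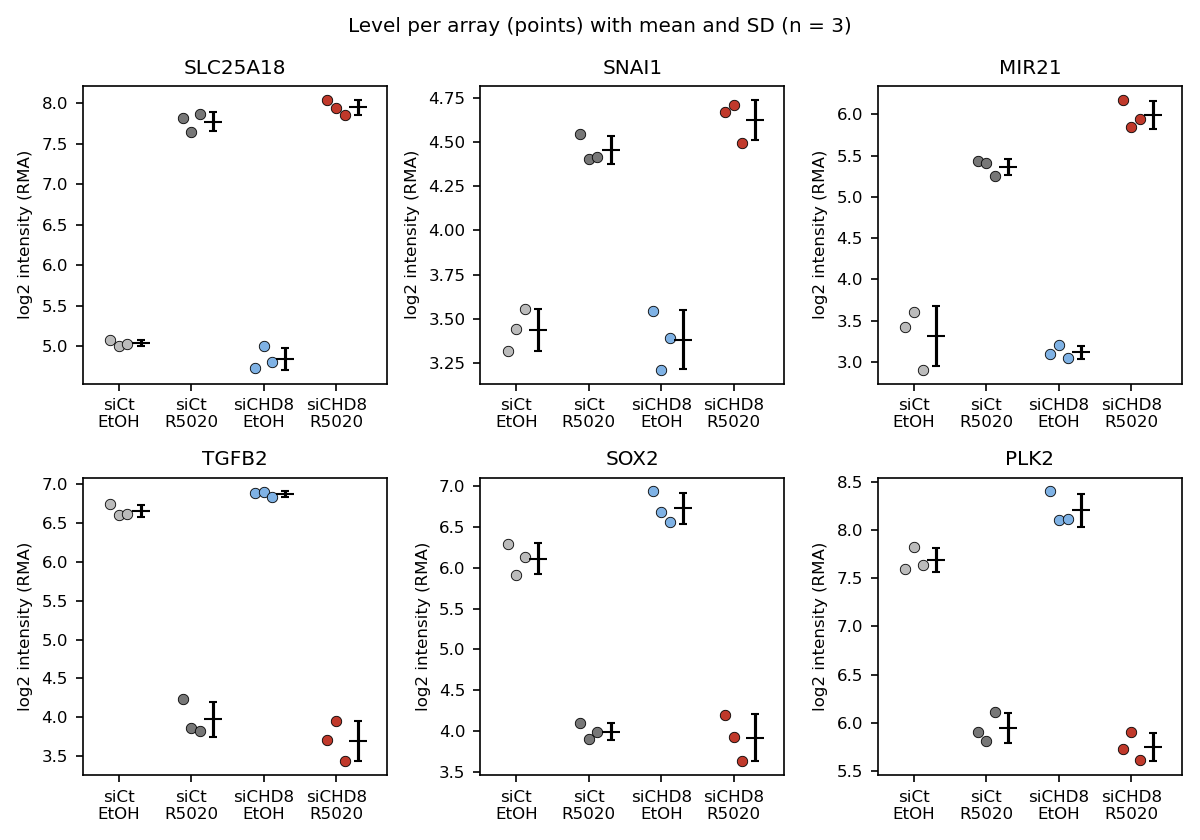
RMA log2 intensity (vertical axis) of 6 genes on each of the 12 arrays, by condition; bars to the right of the points are the mean and SD of 3 arrays. In siCHD8 the hormone arrays of SLC25A18, SNAI1 and MIR21 all lay above the vehicle arrays, and those of TGFB2, SOX2 and PLK2 all lay below them.

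Among probe sets with 1 symbol, the 15 largest rises in siCHD8 ran from 3.82 down to 2.53 on the log2 scale, with adjusted p-values of at most 2.09e-07 (limma). TMEM63C, a membrane protein of an ion channel family, led with vehicle arrays at 4.37, 3.68 and 3.92 and hormone arrays at 7.71, 7.92 and 7.78 (log2 change 3.82, SE 0.17, 14.1-fold). S100P, a calcium-binding protein, stood at 4.22, 4.57 and 4.76 with vehicle and at 7.97, 8.21 and 8.53 with R5020, a change of 3.72 (SE 0.19, 13.2-fold). Both genes thus rose by over 3 log2 units from a low level. ACOT6, an acyl-CoA thioesterase, started lower, at 2.12, 1.99 and 2.67, and reached 5.90, 5.97 and 5.67 (log2 change 3.59, SE 0.16). IL20RA, a receptor chain for interleukins of the IL-20 group, went from 5.15, 5.10 and 4.79 to 8.30, 8.18 and 8.13 (log2 change 3.19, SE 0.19). The arrays of each treatment did not overlap for either gene. The vehicle signal of ACOT6 was as dim as the mean of the markers of other cell types, and the deposited values do not say whether it stood above background, so its change is less certain in size than that of brighter genes. NDRG1, a stress-responsive gene also induced by low oxygen, varied little within each treatment, with 5.57, 5.47 and 5.53 against 8.52, 8.47 and 8.46 (log2 change 2.96, SE 0.10).

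KCNH1, a voltage-gated potassium channel, rose by 2.70 (SE 0.13), the serine/threonine kinase PIM2 by 2.67 (SE 0.14) and CHRM4, a muscarinic acetylcholine receptor, by 2.67 (SE 0.19). PIM2 was close within each treatment, at 5.65, 5.62 and 5.57 with vehicle and 8.27, 8.30 and 8.29 with hormone. CHRM4 was more scattered in vehicle, at 4.58, 5.33 and 4.5, against 7.33, 7.45 and 7.64. The nucleolar protein gene MPHOSPH10, MAN1A1, a mannosidase that trims N-glycans, and NET1, a guanine nucleotide exchange factor, changed by 2.66 (SE 0.14), 2.58 (SE 0.10) and 2.53 (SE 0.12). OTULINL rose by 2.68 (SE 0.14) and MRFAP1L2 by 2.63 (SE 0.13).

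MIR21, the gene of the microRNA miR-21, rose with R5020 from 3.10, 3.20 and 3.04 to 6.18, 5.85 and 5.94. The hormone arrays were all well above the vehicle arrays (log2 change 2.87, SE 0.15, 7.33-fold, adjusted p = 9.88e-09, limma). The sequence of its main mature product is shown because it was the only 1 of 173 probe sets annotated as microRNA genes that was called in siCHD8 (0.578%, against 6.3% of probe sets of protein-coding genes). Capitals mark the seed, bases 2 to 8, through which a microRNA pairs with target RNAs. The sequence is from RefSeq (GRCh38.p14, plus strand, chr17:59841273-59841294).
hsa-miR-21-5p: uAGCUUAUcagacugauguuga
The array labels whole RNA, so its probe set does not separate the mature form from the longer precursor. VMP1, a gene of autophagy whose transcription unit overlaps MIR21 and which was chosen after its values were seen, had log2 intensities of 9.76, 9.48 and 9.62 with vehicle and 9.89, 9.98 and 9.82 with R5020 (log2 change 0.28, SE 0.13, adjusted p = 0.222, limma). Its groups did not overlap, but the change did not pass the threshold.

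The 15 largest falls, again among probe sets with 1 symbol, ended at a log2 change of -1.80, with adjusted p-values of at most 1.04e-05 (limma). GRPR, the receptor of gastrin-releasing peptide, was at 7.16, 7.01 and 6.99 with vehicle and at 4.57, 4.49 and 4.61 with R5020 (log2 change -2.49, SE 0.11). PLK2, a polo-like kinase, was at 8.40, 8.11 and 8.11 and fell to 5.73, 5.91 and 5.61 (log2 change -2.45, SE 0.13). These 2 genes lost more than 2 log2 units without overlap of the arrays. LMCD1, a LIM domain transcriptional cofactor, changed by -2.17 (SE 0.11) and TNFSF10, the death ligand TRAIL, by -2.0 (SE 0.21). RNF152, a ubiquitin ligase of the lysosome, had vehicle arrays at 5.99, 6.10 and 6.01 and hormone arrays at 4.10, 3.94 and 4.13 (log2 change -1.98, SE 0.12). The small GTPase gene RAB30 (-1.93, SE 0.18), the potassium channel gene KCNK2 (-1.91, SE 0.13), NDST4, an enzyme of heparan sulfate synthesis (-1.87, SE 0.14), and IL1R1, which encodes a receptor for interleukin-1 (-1.81, SE 0.18), were also lower. NDST4 was dim with R5020, at 2.34, 2.24 and 2.04, near the mean of the blood and endothelial markers. The size of its fall is therefore less certain. PREX1, DOCK10 and VAV3, guanine nucleotide exchange factors, changed by -1.84 (SE 0.12), -1.82 (SE 0.15) and -1.80 (SE 0.14). In all 15 falls and all 15 rises the 3 hormone arrays lay beyond the 3 vehicle arrays, which was a condition for naming them. Over all probe sets the hormone arrays lay wholly above in 13% and wholly below in 14.2%.

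**Figure D3:**
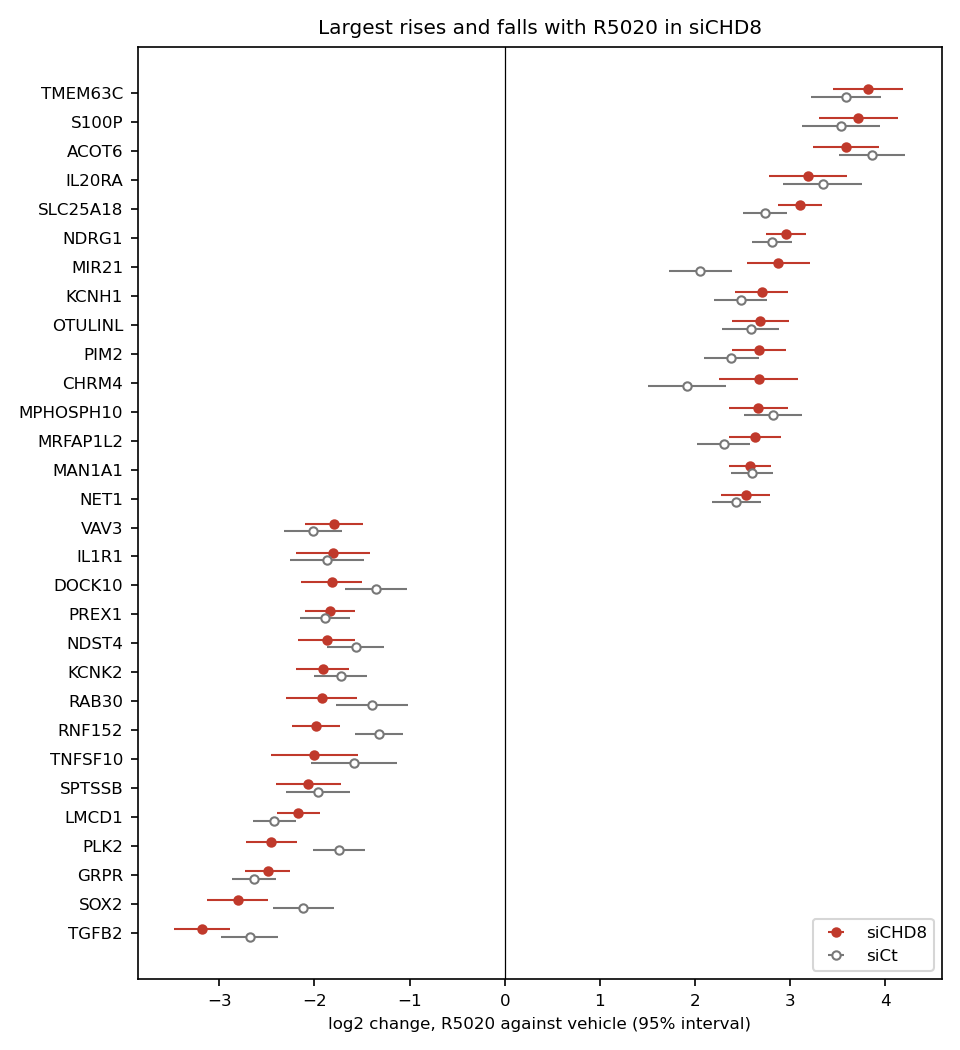
Log2 change with R5020 and its 95% interval (horizontal axis) for the 15 strongest rises and 15 strongest falls in siCHD8 (filled red), with the change of the same genes in siCt (open grey). All 30 genes changed in the same direction with both siRNAs, TMEM63C reached 3.82 and TGFB2 -3.18 in siCHD8.

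Known targets of the progesterone and glucocorticoid receptors rose more often than they fell in siCHD8. Of 32 measured, 20 rose, 2 fell and 10 did not pass, with a median log2 change of 0.65 against -0.02 over all probe sets. This list, like the others, was chosen with earlier results of these data known. Its counts therefore describe the list and are no independent support. TIPARP, an ADP-ribosyltransferase, went from 7.28, 7.02 and 7.13 to 9.48, 9.47 and 9.38 (log2 change 2.30, SE 0.11). PDK4, the kinase that inactivates pyruvate dehydrogenase, rose by 2.29 (SE 0.14), tissue factor F3 by 2.23 (SE 0.19) and ERRFI1, a feedback inhibitor of the EGF receptor, by 2.17 (SE 0.12). HSD11B2, which inactivates cortisol, had 4.16, 4.06 and 4.44 with vehicle and 6.43, 6.43 and 6.33 with R5020 (log2 change 2.18, SE 0.12). The probe set shared by FKBP5, a co-chaperone of steroid receptors, and LOC285847 read 6.62, 6.63 and 6.51 against 9.40, 9.39 and 9.25 (FKBP5;LOC285847, log2 change 2.76, SE 0.12). The hormone arrays of these genes all exceeded the vehicle arrays.

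Several steroid receptor genes fell. PGR, the progesterone receptor gene, was at 8.56, 8.45 and 8.29 with vehicle and at 6.89, 7.05 and 6.86 with R5020, a log2 change of -1.50 (SE 0.11, adjusted p = 2.09e-07, limma). FOXA1, a pioneer factor for steroid receptors, was at 9.20, 9.21 and 9.03 and fell to 7.64, 7.66 and 7.89 (log2 change -1.41, SE 0.12). The arrays of both genes were apart by over 1 log2 unit. ESR1, the estrogen receptor alpha gene, changed by -0.91 (SE 0.12), although a second and dimmer probe set of it gave -0.01 (adjusted p = 0.983, limma). The glucocorticoid receptor gene NR3C1 changed by -0.52 (SE 0.13, adjusted p = 0.014, limma), a call lost without siCHD8 EtOH replicates 1 or 2 or siCHD8 R5020 replicate 2. Among 15 measured steroid receptors and coregulators 0 rose and 5 fell, with a median of -0.37.

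Other luminal genes fell with them. Of 20 luminal epithelial markers, 10 fell and 1 rose, with a median of -0.31. FOXA1 is counted in both lists, and GATA3 is also in the receptor list. TFAP2C, an AP-2 transcription factor, changed by -1.22 (SE 0.13), ELF3, an epithelial ETS factor, by -0.90 (SE 0.14), KRT18 by -0.67 (SE 0.14) and GATA3 by -0.56 (SE 0.10). The exception was GRHL2, a grainyhead factor of epithelial junctions, with 8.42, 8.28 and 8.22 against 9.62, 9.58 and 9.55 (log2 change 1.27, SE 0.10). Targets of the estrogen receptor were split, with 4 rises and 3 falls among 17 and a median of 0.03. GREB1, an estrogen receptor cofactor, rose by 1.82 (SE 0.12) and the carbonic anhydrase CA12 by 0.93 (SE 0.11), whereas the small GTPase RERG changed by -1.55 (SE 0.14) and the transcription factor MYB by -0.87 (SE 0.14).

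The EGF receptor system changed in both directions. Ligands and the receptor itself rose: EGF from 4.62, 4.22 and 4.44 to 6.59, 6.71 and 6.43 (log2 change 2.15, SE 0.15), TGFA by 1.21 (SE 0.14) and EGFR by 1.10 (SE 0.15). The related receptor ERBB2 changed by -1.02 (SE 0.12), with vehicle arrays at 7.94, 7.89 and 7.64 and hormone arrays at 6.78, 6.76 and 6.86. ERBB4 and ERBB3 had log2 changes of -1.01 and -0.56. Of 18 measured members 5 rose and 5 fell, and the median was -0.05. Of 24 cytokine receptors and SOCS genes 2 rose and 3 fell (20.8%, against 11.5% of all probe sets), with a median of -0.09. The rises were IL20RA and IL6ST, the shared gp130 chain of the interleukin-6 family, which went from 7.98, 7.89 and 7.87 to 9.52, 9.66 and 9.59 (log2 change 1.68, SE 0.13). The oncostatin M receptor OSMR changed by -0.57 (SE 0.12) and the feedback gene CISH by -0.45 (SE 0.13). CISH passed 0.05 no longer in 8 of the fits with 1 array left out.

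Of 10 phosphatases of MAP kinases, DUSP1 (1.07, SE 0.12) and DUSP16 (0.38, SE 0.10) rose and DUSP10 (-1.19, SE 0.15), DUSP5 (-0.72, SE 0.15) and DUSP6 (-0.45, SE 0.12) fell, and the median was -0.05. The rise of DUSP16 did not pass 0.05 without siCHD8 EtOH replicate 2 or siCHD8 R5020 replicates 2 or 3. The fall of DUSP6 did not pass it without siCHD8 EtOH replicate 3 or siCHD8 R5020 replicates 1 or 3. Of 19 immediate early and AP-1 genes 5 rose and 1 fell, with a median of 0.16. FOSL2, an AP-1 subunit, rose by 0.77 (SE 0.11) and the mRNA decay factor ZFP36 by 0.76 (SE 0.10). The count of rises was 3 without siCHD8 EtOH replicate 3 or siCHD8 R5020 replicate 2, and the fall of IER2 (-0.47, SE 0.14) was lost in 9 of the fits with 1 array left out. Of 13 Kruppel-like factors 5 rose and 1 fell, with a median of 0.32. KLF4 had the largest change among them (1.86, SE 0.13). KLF15, which serves glucocorticoid-type metabolic programmes, rose by 1.47 (SE 0.20), KLF5 by 0.77 (SE 0.14) and KLF11 by 0.64 (SE 0.11). KLF12 changed by -0.57 (SE 0.15), a fall lost without siCHD8 EtOH replicates 1 or 2 or siCHD8 R5020 replicates 2 or 3.

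Among cell cycle genes, CCND1, the G1 cyclin D1, rose from 7.30, 7.34 and 7.12 to 8.39, 8.35 and 8.37 (log2 change 1.12, SE 0.12) and CCNE2, a cyclin E, by 0.67 (SE 0.11). The inhibitor gene CDKN2B changed by -0.73 (SE 0.11) and CDKN1A, encoding p21, by 0.41 (SE 0.11), a rise lost in 5 of the fits with 1 array left out. Of 18 G1 cyclins and CDK inhibitors 3 rose and 2 fell (27.8%, against 11.5% of all probe sets), with a median of 0.08. The fall of RBL2 (-0.41, SE 0.12) was lost in 9 of the fits with 1 array left out. Of 34 DNA replication genes 6 rose (17.6%, against 11.5% of all probe sets that passed and 6.04% that were higher), 0 fell and the median was 0.08. GINS2, a subunit of the replicative helicase, stood out, with 9.11, 9.18 and 9.09 against 10.53, 10.53 and 10.42 (log2 change 1.37, SE 0.21). The helicase loader CDC6 changed by 0.68 (SE 0.19) and E2F1, a transcription factor of S phase genes, by 0.47 (SE 0.12). The count of 6 was 2 without siCHD8 EtOH replicate 2 or siCHD8 R5020 replicate 1, and 1 without siCHD8 EtOH replicate 3 or siCHD8 R5020 replicate 2. None of 24 mitosis genes passed (lowest adjusted p = 0.0923, limma), and their median log2 change was -0.18. Without siCHD8 EtOH replicate 1 there was 1 mitosis gene higher, and without siCHD8 EtOH replicate 3 there was 1 lower.

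Metallothioneins and amino acid transporters held rises and no falls. Of 10 metallothioneins, small metal-binding proteins, 8 rose and 0 fell, with a median of 0.76. MT2A went from 8.99, 8.84 and 9.14 to 10.77, 10.79 and 10.99 (log2 change 1.86, SE 0.12) and MT1X from 5.14, 5.42 and 5.45 to 6.53, 6.82 and 7.21 (log2 change 1.52, SE 0.15). The metallothioneins are near-identical copies, so signal of 1 gene on the probe set of another cannot be told apart. Of 20 amino acid transporters 10 rose and 0 fell, with a median of 0.43. The taurine transporter SLC6A6 rose by 1.61 (SE 0.11), SLC7A8, a light chain for neutral amino acids, by 1.15 (SE 0.10) and the cationic transporter SLC7A1 by 0.77 (SE 0.11). The number of transporters that rose was 6 without siCHD8 R5020 replicate 2, and 1 fell without siCHD8 EtOH replicate 3.

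Cholesterol and fatty acid synthesis had 27 measured genes, of which 12 rose and 1 fell, with a median of 0.32. The reductase DHCR7 rose by 0.87 (SE 0.11), SREBF1, a transcription factor that drives lipid synthesis, by 0.86 (SE 0.11) and the monooxygenase SQLE by 0.76 (SE 0.11). SC5D, a desaturase late in cholesterol synthesis, was at 9.13, 9.01 and 8.96 with vehicle and at 8.30, 8.25 and 8.27 with hormone (log2 change -0.76, SE 0.15). Sphingolipid synthesis had 8 falls and 2 rises among 22 genes and a median of -0.28. SPTSSB and SPTLC2, a regulatory and a catalytic subunit of serine palmitoyltransferase, changed by -2.06 (SE 0.16) and -1.39 (SE 0.13), and the sphingomyelin synthase SGMS2 by -1.12 (SE 0.14). DEGS1, which introduces the double bond of ceramide, rose by 0.86 (SE 0.15). The 8 falls were 5 without siCt R5020 replicates 1 or 2, siCHD8 EtOH replicates 1 or 2 or siCHD8 R5020 replicate 1, and the 2 rises were 1 without siCHD8 EtOH replicate 2 or siCHD8 R5020 replicate 2.

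Of 31 genes of hypoxia and glycolysis, 12 rose and 1 fell. Their median log2 change was only 0.05, so the remainder of the list did not share the direction. Besides NDRG1, the collagen hydroxylase P4HA2 rose by 2.15 (SE 0.11), PFKFB3, which makes an activator of glycolysis, by 2.12 (SE 0.12) and the hexokinase HK2 by 1.05 (SE 0.24). EGLN3, an oxygen-sensing hydroxylase, went from 7.94, 7.74 and 7.71 to 6.72, 6.56 and 6.36 (log2 change -1.25, SE 0.13).

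**Figure D4:**
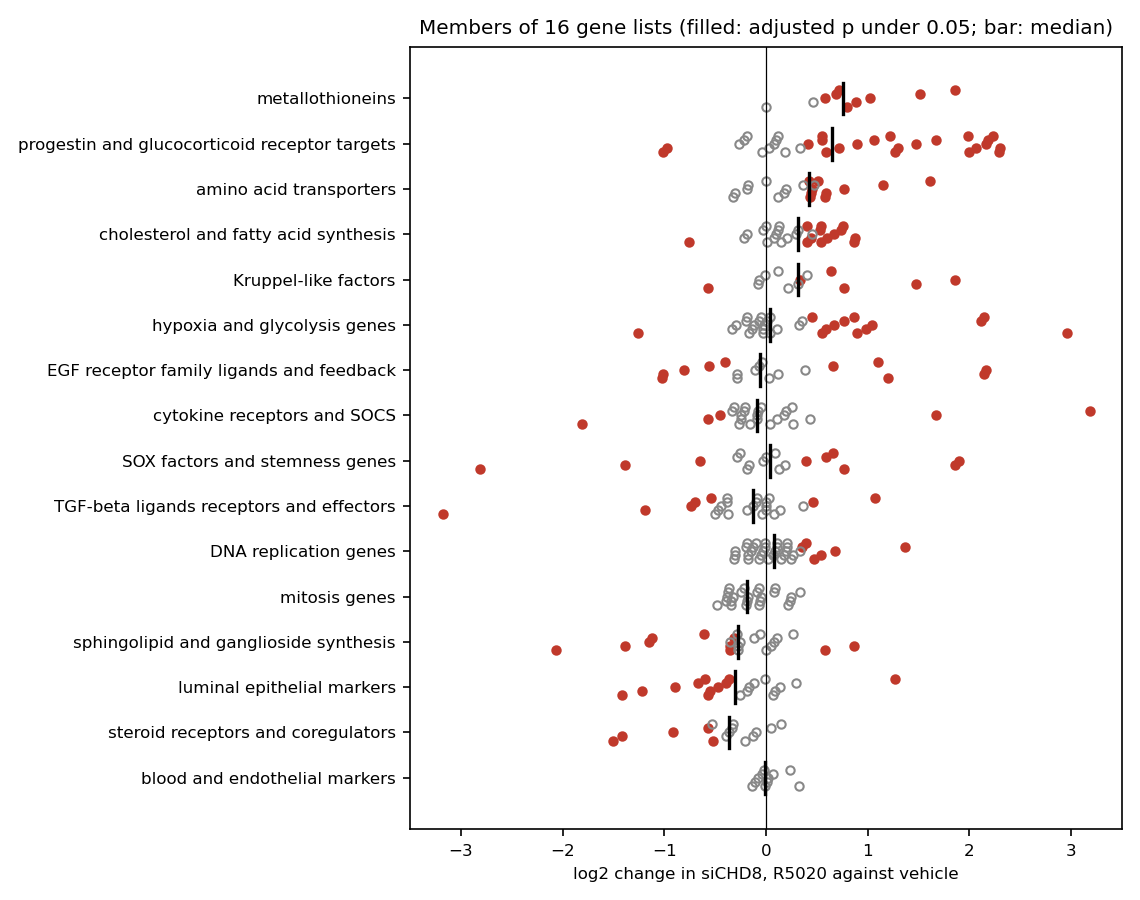
Log2 change with R5020 in siCHD8 (horizontal axis) for the measured members of 16 of the 31 gene lists, 1 point per gene, filled where the adjusted p was under 0.05; the vertical bar is the median of the list. Metallothioneins (median 0.76) and receptor targets (0.65) lie to the right of 0, steroid receptors (-0.37) and luminal markers (-0.31) to the left. The lists were chosen with earlier results of these data known.

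Of 19 clock genes 3 rose, among them NFIL3 (0.75, SE 0.13) and PER1 (0.72, SE 0.13), and 4 fell, among them PER3 (-0.74, SE 0.15) and NR1D2 (-0.61, SE 0.12). In this list 36.8% passed, against 11.5% of all probe sets. The falls were 2 without siCHD8 R5020 replicate 3. Among 22 measured genes of the unfolded protein response and of amino acid stress 3 rose, led by DDIT4, an inhibitor of mTORC1 signalling (0.87, SE 0.15). Their number was 1 without siCHD8 R5020 replicates 1 or 2 and 5 without siCt EtOH replicate 2. The 3 were 13.6% of this list, near the 11.5% of all probe sets that passed 0.05. Of 15 heat shock and co-chaperone genes 4 rose, led by DNAJB4 (1.94, SE 0.18) and DNAJB1 (0.90, SE 0.11), and the fall of HSPA4L (-0.56, SE 0.15) was lost without siCHD8 EtOH replicates 1 or 2 or siCHD8 R5020 replicates 1 or 3, while 2 fell without siCHD8 EtOH replicate 3. Among 18 p53 targets 5 rose and 3 fell (44.4%), with the death receptor TNFRSF10B at 1.01 (SE 0.11) and the RNA-binding protein ZMAT3 at -0.68 (SE 0.12). The rises numbered 3 without siCHD8 EtOH replicate 3 or siCHD8 R5020 replicates 1 or 3, and 2 without siCHD8 R5020 replicate 2. Of 17 Wnt/beta-catenin targets 4 rose and 3 fell (41.2%). LEF1, a transcription factor of that pathway, went from 4.42, 4.18 and 4.42 to 6.55, 6.49 and 6.73 (log2 change 2.25, SE 0.12).

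In the CHD family of 10, CHD1L (1.01, SE 0.13) and CHD2 (0.59, SE 0.11) rose and CHD4 (-0.44, SE 0.11) fell along with CHD8. The 2 falls were 0 without siCHD8 EtOH replicate 1 or siCHD8 R5020 replicates 2 or 3, and 1 without siCHD8 EtOH replicate 2 or siCHD8 R5020 replicate 1. Of 21 SWI/SNF subunits, ARID2 fell (-0.68, SE 0.10) and BRD9 was higher at 0.45 (SE 0.12), a rise that was lost without siCHD8 EtOH replicate 2 or siCHD8 R5020 replicates 2 or 3, and 2 rose without siCHD8 EtOH replicate 1. The ATPase genes SMARCA4 (-0.01, SE 0.11) and SMARCA2 (-0.33, SE 0.13, adjusted p = 0.13, limma) did not pass. The share of subunits that passed 0.05 was 9.52%, below the 11.5% of all probe sets. Of 20 interferon response genes 0 rose and 3 fell, led by OAS2, an antiviral synthetase (-1.30, SE 0.13). These 3 were 15% of the list, against 11.5% of all probe sets.

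Most hormone calls in siCHD8 were also made with the control siRNA. Of the 715 probe sets called higher, 584 (81.7%) were called higher in siCt, and these were 62.6% of the 933 called higher there. Of the 474 called lower, 289 (61.0%) were called lower in siCt, 63.2% of 457. None was called in the opposite direction. In siCt 6.55% of probe sets were called in all. The 131 rises called in siCHD8 alone had a median log2 change of 0.70 in siCHD8 and 0.46 in siCt, and 129 had the same sign. The 185 such falls had medians of -0.72 and -0.40, and 181 had the same sign. A call on 1 side of a threshold does not show a difference, so the difference itself was tested.

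For the difference between the siCHD8 response and the siCt response, 0 probe sets (0%) reached an adjusted p under 0.05 with limma, while 2027 (9.56%) had an unadjusted p under 0.05. The median SE of this difference was 0.19 on the log2 scale. The values that follow are those with the lowest unadjusted p among called genes, and none of them passes the correction. On the side of larger changes in siCHD8, MIR21 rose by 2.87 against 2.06 in siCt (difference 0.82, 95% interval 0.35 to 1.28, adjusted p = 0.49, limma). ZNF703, a luminal breast cancer gene, rose by 1.08 against 0.46, and the small nucleolar RNA gene SNORD104 by 0.82 against -0.02. PLK2 changed by -2.45 against -1.74 (difference -0.71, 95% interval -1.10 to -0.33), RNF152 by -1.98 against -1.32 and GTPBP8 by -0.78 against 0.19. BIN3-IT1 (0.59 against -0.21) and the lysosomal enzyme gene IDUA (0.67 against 0.03) complete this side. BIN3-IT1 was dim, at 2.19, 2.36 and 2.21 in siCHD8 EtOH, near the mean of the blood and endothelial markers. Its change is therefore less certain than that of brighter genes. The hormone change of BIN3-IT1 passed 0.05 no longer without siCHD8 R5020 replicates 2 or 3. In siCHD8 against siCt, ZNF703 differed by -0.52 with vehicle and 0.10 with R5020, and PLK2 by 0.52 and -0.19. MIR21 differed more with R5020 (-0.19 with vehicle, 0.63 with R5020), as did RNF152 (-0.16 and -0.82).

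On the side of smaller changes in siCHD8, the deubiquitinase USP7 rose by 0.60 against 1.25 in siCt (difference -0.65, 95% interval -0.97 to -0.34). SOD2, the mitochondrial superoxide dismutase, rose by 1.43 against 2.20, SRGAP1, a GTPase activator, by 1.69 against 2.32 and HSD11B2 by 2.18 against 2.83 (difference -0.65, 95% interval -1.01 to -0.29). RASGRP1 (1.16 against 1.83), PDE5A (1.02 against 1.58), ST8SIA1 (-1.15 against -1.85) and TRIM25 (-0.69 against -1.19) were the others. PDE5A was dim in siCHD8 EtOH, at 2.31, 2.20 and 2.14, near the mean of the blood and endothelial markers. ST8SIA1, a sialyltransferase of gangliosides, had a second and dimmer probe set at -0.21 in siCHD8. Of other genes that the study names, IL6ST rose by 1.68 against 2.19 (difference -0.52, 95% interval -0.92 to -0.12), NFE2L3, a CNC-bZIP factor, by 1.30 against 1.95 (-1.33 to 0.03), FKBP5;LOC285847 by 2.76 against 3.05 (-0.67 to 0.08) and DUSP1 by 1.07 against 1.32 (-0.63 to 0.12). The last 3 intervals include 0. Each of these genes was still called higher with R5020 in siCHD8.

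**Figure D5:**
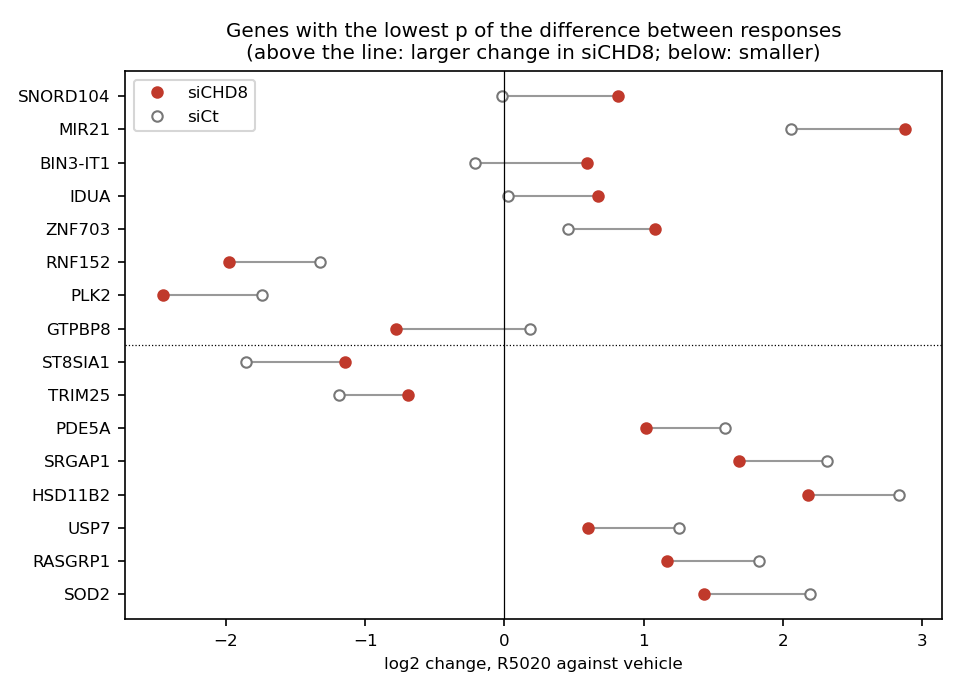
Log2 change with R5020 (horizontal axis) in siCHD8 (filled red) and siCt (open grey) for the 16 called genes with the lowest unadjusted p of the difference, 8 with the larger and 8 with the smaller change in siCHD8. MIR21 moved from 2.06 in siCt to 2.87 in siCHD8 and SOD2 from 2.20 to 1.43; none of the 16 passed the adjusted p for the difference.

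The markers compared in the same way. SLC25A18 rose by 3.10 in siCHD8 and 2.74 in siCt (difference 0.37, 95% interval 0.04 to 0.70), and SNAI1 by 1.24 and 1.02 (difference 0.23, interval -0.12 to 0.57). SOX2 changed by -2.81 and -2.12 (difference -0.69, interval -1.15 to -0.24) and TGFB2 by -3.18 and -2.68 (difference -0.50, interval -0.92 to -0.08). None passed the correction (adjusted p = 0.51, 0.65, 0.49 and 0.51, limma). In siCHD8 against siCt, SOX2 differed by 0.62 with vehicle (SE 0.15) and by -0.08 with R5020 (SE 0.15). By the same comparison TGFB2 differed by 0.22 and -0.28, SLC25A18 by -0.19 and 0.17 and SNAI1 by -0.06 and 0.17. All 15 largest rises and all 15 largest falls were called in siCt as well. The change was the larger one in siCHD8 for 11 of the rises and 10 of the falls, and genes picked for a large change in siCHD8 lean that way by the choice itself. LIFR and TGFBR3, which were called higher in siCt and not in siCHD8, were chosen after their values were seen. LIFR, the receptor for leukemia inhibitory factor, had log2 intensities of 3.62, 3.37 and 3.41 with vehicle and 3.83, 3.23 and 3.46 with R5020 in siCHD8, where the arrays overlapped. Its change was 0.04 (SE 0.14) against 1.28 in siCt (difference -1.25, 95% interval -1.67 to -0.82, adjusted p = 0.36, limma). Without siCHD8 R5020 replicate 1 it was the only probe set to pass for the difference (adjusted p = 0.037, limma). TGFBR3, a TGF-beta coreceptor, changed by 0.37 (SE 0.15) against 1.47 (difference -1.11, interval -1.55 to -0.66).

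The full palindromic element of these receptors, spelled here as a G, any base, ACANNNTGT, any base and a C (N is any base) and read on both strands, was looked up in windows of 250 bases before to 50 after each gene start (RefSeq, GRCh38.p14), which were matched for 14240 of 18418 genes. It was found in 0.303% of 20110 windows, in 2 of 850 windows of genes called higher in siCHD8 (0.235%) and in 2 of 624 windows of genes called lower (0.321%). By gene it was in 0.393% of all, 0.191% of those higher (1 gene) and 0.552% of those lower. The shorter core ACANNNTGT, which every full element contains, was in 3.91% of all windows, 3.41% of those higher and 5.29% of those lower. Counted by gene, the core was in 742 of 14240 genes (5.21%), in 25 of 523 called higher (4.78%) and in 30 of 362 called lower (8.29%), shares that were not tested. The elements of 3 genes are shown as the only full matches among called genes. They are printed in stretches of 60 bases that end before a gene start, with the element in capitals. EPHA4, an ephrin receptor (chr2:221574223-221574282, minus strand), EXOC6, an exocyst subunit (chr10:92826640-92826699, plus strand), and CBLB, a ubiquitin ligase (chr3:105868396-105868455, minus strand, upstream of 2 annotated starts), hold them.
EPHA4: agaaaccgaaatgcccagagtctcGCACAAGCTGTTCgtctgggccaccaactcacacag
EXOC6: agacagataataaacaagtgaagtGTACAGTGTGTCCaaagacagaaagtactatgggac
CBLB: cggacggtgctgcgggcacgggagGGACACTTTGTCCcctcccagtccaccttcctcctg
These genes were chosen by the match. EPHA4 was at 5.75, 5.52 and 5.52 with vehicle and 4.78, 4.56 and 4.80 with R5020 (log2 change -0.88, SE 0.12), EXOC6 changed by -0.72 (SE 0.13) and CBLB by 0.63. A match is a string of letters in the window, and receptor binding was not measured here.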

How the data were processed

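Gene expression was measured in T47D-MTVL cells on GeneChip Human Gene 1.0 ST arrays, 3 for each of 4 conditions. Each deposited value is the log2 intensity of a probe set, which the authors extracted with the Command Console software, normalized by RMA (background correction, quantile normalization and summary over probes) and processed with oneChannelGUI. Their versions were not given in the sources used here. RMA draws the arrays to a common distribution, so changes are relative to the array as a whole. No further normalization was applied, and 0 columns were left unused.

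Of 33297 probe sets, 19461 carry 1 gene symbol, 1753 several and 12083 none in the platform annotation, and the 21214 with a symbol were tested. Of these, 703 hold the same values as another. A gene with several probe sets was given by the brightest. Means of the 4 conditions were estimated over all 12 arrays in limma (3.58.1, R 4.3.3), with Benjamini-Hochberg adjustment. Calls required an adjusted p below 0.01 and more than 1.5-fold change; list members were counted at 0.05. The labels name the arrays biological replicates, while the protocol says only that RNA was isolated in triplicate, so whether cultures were separate is not stated and the p-values measure the spread between these samples, which may be technical.

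Named genes were the markers, genes that the study names, the 15 largest called rises and falls with 1 symbol and non-overlapping arrays, and 8 each way by the p of the difference. Up to 5 members of each of 31 lists were also named. They had the largest absolute log2 change among members at an adjusted p under 0.05, so their large changes follow from the choice. Members and lists were chosen with earlier results of these data known. Of 653 list entries, 32 had no match here and are not analysed, and 14 lay on shared probe sets. TMPRSS2 is not analysed here. Alternatives were other normalizations, filters, variance models and thresholds, the replicate block and each array left out. Simulated data over 21214 probe sets were drawn as independent normal values, with 50 changes of each size set in siCHD8 R5020. Of changes of 0.7, 44% were recovered, and of changes of 1, 78%. The shares were 98% for 1.5 and 92% for 2, with 1 false call. The real data held more changes (2432 at an adjusted p under 0.05, limma), so these shares need not carry over. Tables and figures used Python 3.11.15, pandas 2.3.3 and matplotlib 3.10.9.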

Additional observations from a re-analysis of the deposited data

Results flagged for a closer look

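Probe sets without a gene symbol were outside the main comparison. In siCHD8, 83 of these 12083 were called for R5020 (0.687%), 66 higher and 17 lower, against 5.6% of those with a symbol. What they measure was not analysed here.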

How the results depend on the processing

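The 1189 calls in siCHD8 numbered 1024 to 1271 under other normalizations, filters, variance models and array sets and 1402 with an unadjusted p under 0.01. Tested against a fold of 1.5 (treat), 333 were called, 235 higher and 98 lower; this test is stricter by construction. With 1 array left out the calls numbered 945 to 1235, 583 to 739 higher and 328 to 516 lower. With the replicate block they numbered 1132 (689 higher, 443 lower). Pairing by number was checked on each array's deviations from its condition mean, by Pearson's r over probe sets. Between same-numbered arrays this r was -0.247 to 0.196 over 18 pairs, which gave no sign of pairing. With the block the difference between responses stayed at 0. That difference had 0 probe sets in every fit run but 1, with 0 to 1 over the arrays left out. CHD8 in siCHD8 against siCt passed 0.05 after median centring (-0.70 with R5020), quantile normalization (-0.60 with vehicle, -0.62 with R5020), leaving out dim probe sets or a trended and robust variance (-0.58 and -0.62 in both) and array weights (-0.64 with R5020), and ranged with 1 array left out from -0.70 to -0.50 (vehicle) and from -0.67 to -0.53 (R5020), passing without siCHD8 EtOH replicate 1 (-0.70 and -0.62) and, with R5020, without siCt EtOH replicate 3. The cause was not tested. SMARCA4, at -0.01, ranged from -0.071 to 0.0408 with 1 array left out and changed sign without siCHD8 EtOH replicate 1 or siCHD8 R5020 replicate 3. Of the 164 named genes, 25 passed an adjusted p of 0.05 no longer with some array left out and 18 under another setting. Low probe sets limit what the arrays can show.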

Other observations

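Small RNAs and long noncoding RNAs showed different counts of calls in siCHD8. Of 178 probe sets of small nucleolar RNA genes, 6 were called higher and 0 lower (3.37%). Of 692 probe sets of long noncoding RNA genes, 4 were called higher and 11 lower (2.17%). Of 430 probe sets of transcribed pseudogenes, 2 were called higher (0.465%). Protein-coding genes had 669 higher and 452 lower among 17798 (6.3%). Differences between these classes were not tested.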
